A study of Rattus norvegicus with 448 samples.

Results

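The molecular clock was read here through 8 genes in rat liver: Arntl (ENSRNOG00000014448), Clock (ENSRNOG00000002175) and Npas2 (ENSRNOG00000013408), Nr1d1 (ENSRNOG00000009329), Per1 (ENSRNOG00000007387), Per2 (ENSRNOG00000020254) and Per3 (ENSRNOG00000018413), and the output gene Dbp (ENSRNOG00000021027). They were chosen by their Ensembl identifiers, as 8 of the 16796 genes in the deposited table, with the steep drift of Dbp in these data already known. No cut-off on a value was used to choose them. All 8 passed the filter on low values, 1.0 FPKM (fragments per kilobase, on a scale set for each library) or more in at least 10% of libraries, as did 12234 genes in all. Per3 had the fewest libraries of the 8 genes at or above 1.0 FPKM, 84 of 430 (19.5%).

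The livers came from outbred rats aged 17 weeks, in a study that mapped loci for metabolic traits and searched near them for genes with genetic differences in expression. RNA of snap-frozen liver was sequenced as 37 bp paired-end reads. The labels put all liver libraries in 1 group, and the 430 whose identifier names a column are described here. The labels give no sex, diet, treatment, genotype, batch or hour of collection, so no group comparison could be made and no level can be tied to a time of day. Their only structure is the number in each library's title and an identifier in 2 parts, of which some libraries have the first in common.

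The clock of a liver cell is a loop of transcription and repression. ARNTL (also called BMAL1) pairs with CLOCK or its relative NPAS2, and the pair binds E-boxes to switch on Per1, Per2, Per3, Nr1d1 and Dbp. PER proteins then repress that pair, and NR1D1 (REV-ERB alpha) represses Arntl, Clock and Npas2 through ROR elements. DBP is a transcription factor that binds D-boxes and carries the rhythm to other liver genes. In liver the activator genes and their targets are known to peak at opposite times of day.

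The letters of these elements were sought in the 250 bases before each gene's start in RefSeq (build GRCr8), where the 8 genes had 10 windows, with 2 each for Clock and Nr1d1. The motifs were CACGTG (E-box), CACGTT (a variant E-box), TAGGTCA (core of a ROR element) and TTANGTAA (D-box), on both strands. TAGGTTA, a ROR variant, was added after the Arntl window had been read. No matches overlapped in any window shown, and 3 of the 8 genes had a match. The share of all windows with any of these motifs was not counted, so that number has no background. Those windows are shown because they hold a target of each arm of the loop. Each runs 5′ to 3′ on the gene's strand and ends just before the start, with matches in capitals.
Arntl (Bmal1 in RefSeq), chr1:176766078-176766327, plus strand: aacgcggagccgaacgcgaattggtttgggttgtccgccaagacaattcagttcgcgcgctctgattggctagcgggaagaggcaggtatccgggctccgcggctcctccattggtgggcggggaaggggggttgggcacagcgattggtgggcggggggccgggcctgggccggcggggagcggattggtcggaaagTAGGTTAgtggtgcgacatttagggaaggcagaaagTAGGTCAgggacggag
Nr1d1, window 1, chr10:84231813-84232062, minus strand: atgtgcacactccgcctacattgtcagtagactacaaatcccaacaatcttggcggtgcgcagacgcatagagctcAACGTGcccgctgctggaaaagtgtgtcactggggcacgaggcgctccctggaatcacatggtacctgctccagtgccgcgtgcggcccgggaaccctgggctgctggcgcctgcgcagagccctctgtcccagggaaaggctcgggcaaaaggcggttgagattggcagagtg
Nr1d1, window 2, chr10:84229455-84229704, minus strand: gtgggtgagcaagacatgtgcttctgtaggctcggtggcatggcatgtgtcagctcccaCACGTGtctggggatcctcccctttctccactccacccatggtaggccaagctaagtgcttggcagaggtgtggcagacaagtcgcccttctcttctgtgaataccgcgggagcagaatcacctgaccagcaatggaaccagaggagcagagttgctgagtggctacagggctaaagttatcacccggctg
Per2, chr9:99496994-99497243, minus strand: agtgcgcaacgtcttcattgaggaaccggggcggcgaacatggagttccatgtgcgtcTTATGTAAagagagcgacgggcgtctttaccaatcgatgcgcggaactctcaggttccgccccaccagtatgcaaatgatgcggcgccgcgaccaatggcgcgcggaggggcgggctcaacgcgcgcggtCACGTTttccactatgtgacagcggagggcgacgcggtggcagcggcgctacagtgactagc

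Arntl held TAGGTCA from 16 to 10 bases before its start and TAGGTTA from 52 to 46 bases before it, and no E-box. Nr1d1 held CACGTT on the reverse strand, read as AACGTG, at chr10:84231981-84231986 in window 1. In its window 2 CACGTG lay at chr10:84229640-84229645. Per2 held CACGTT from 62 to 57 bases before its start and a D-box, TTATGTAA, at chr9:99497178-99497185. Among 33469 windows of 250 bases, 5.59% held CACGTG, 4.07% CACGTT, 2.26% TAGGTCA, 1.42% TAGGTTA and 2.04% TTANGTAA. The windows of Dbp, Npas2, Clock, Per1 and Per3 held none of these letters, which says nothing of sites outside them. A match is a run of letters and not a measured site.

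Reads per library, recovered from the steps in the FPKM values, had a median of 24575994 and ranged from 186158 to 61300479, with 25 libraries under 10000000. From the 10th to the 90th percentile of libraries, Clock had 639.2 to 3400.7 of these reads, Arntl 208.8 to 1821.6, Dbp 89 to 1195.4 and Per2 127.9 to 684.4. Per3 rested on the fewest, with a median of 72 and under 10 reads in 18 libraries. At least 1 of the 8 genes was listed at 0 in 6 libraries, none with more than 2094827 recovered reads. One of them, with 186158 reads, had 5 of the 8 genes at 0. Over all genes 45.7% of the variance lay on the first principal component, which followed the log10 of recovered reads with r = 0.599. Among the 8 genes, Clock followed that component most closely (r = 0.822) and Dbp followed it with r = -0.165. In bulk liver, fewer cells of a type and less RNA per cell cannot be told apart.

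Among the activators, Arntl had the highest median of the 8 genes. Its lowest, median and highest levels were 0.377, 14.4 and 26.6 FPKM, with a tail of low libraries on the log2 scale. At 15 FPKM or more lay 46% of the libraries, and under 1 FPKM lay 6 of them. Clock, the usual partner of ARNTL, ran from 0 through a median of 7.53 to 18.2 FPKM. It was the steadiest of the 8 as a ratio, with a 90th percentile 2.89 times the 10th. Npas2, which can stand in for Clock, ran from 0.258 through 5.97 to 14.2 FPKM and also had its tail on the low side, with 7 libraries under 1 FPKM.

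Among the repressors, Nr1d1 ran from 0 through a median of 13.7 to 107.3 FPKM. Its 90th percentile was 12.1 times its 10th. Per1, a PER gene that hormones and feeding also induce, ran from 0 through 5.34 to 19.9 FPKM and had the widest such ratio, 15.4. It was spread broadly and not drawn to 1 level: 14.7% of libraries lay under 1 FPKM, 16.7% from 1 to 3, 31.6% from 3 to 7, and 33.5% from 7 to 15 FPKM. Per2, a core PER repressor, was low and narrow, from 0 through 2.38 to 12.7 FPKM, with 65.6% of libraries between 1 and 3 FPKM. Per3, a PER gene with a lesser part in the loop, was the lowest, from 0 through 0.447 to 11.7 FPKM, and 80.5% of libraries lay under 1 FPKM.

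Dbp, the output, ran from 0.738 through a median of 6.14 to 169.2 FPKM. Most libraries were low and a long tail was high: 55.3% lay under 7 FPKM and 50 libraries at 31 FPKM or more. Its 90th percentile, 34.6 FPKM, was 14.1 times its 10th, 2.46 FPKM. On the log2(FPKM + 1) scale its SD over libraries was 1.33, and only 21 of the 12234 genes had a higher one. Nr1d1 (SD 1.22) had 49 genes above it and Arntl (SD 0.76) had 880, while Per1 (SD 1.07) exceeded 98.8% of genes. The median SD of all genes was 0.38. Npas2 (0.61), Per3 (0.56), Clock (0.51) and Per2 (0.51) lay above that median too, and this scale understates the spread of Per3, which is near 0.

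**Figure D1:**
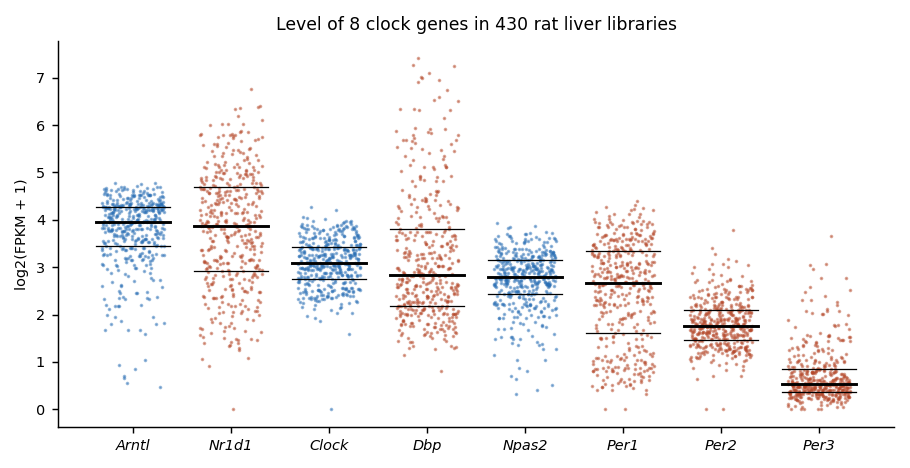
Level of each gene, as log2(FPKM + 1), in 430 liver libraries, 1 point per library, with the genes in order of their median. The thick line is the median and the thin lines are the quartiles. Arntl and Npas2 trail downwards, Dbp and Per3 trail upwards, and Nr1d1, Dbp and Per1 spread most.

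By median FPKM, a scale per gene length, the order was Arntl, Nr1d1, Clock, Dbp, Npas2, Per1, Per2 and Per3. Most neighbours in it did not differ beyond their spread, since the quartile ranges overlapped for each pair of neighbours except Per2 and Per3. Arntl was above Nr1d1 in 51.9% of libraries, Clock above Dbp in 54.4%, Dbp above Npas2 in 49.8% and Npas2 above Per1 in 51.9%. Nr1d1 was above Clock in 70.9%, Per1 above Per2 in 71.4% and Per2 above Per3 in 99.1%. These levels are a description, since the genes were chosen with their spread known.

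Where Dbp was high, Arntl and Npas2 were low. The library with the highest Dbp, 169.2 FPKM, had Arntl at 0.624, Npas2 at 0.563, Nr1d1 at 64.5 and Per3 at 4.96 FPKM. In the next highest, Dbp was 152.6, Arntl 0.919, Npas2 0.624, Nr1d1 46.1 and Per3 4.60 FPKM. At the other end, the library with the lowest Dbp, 0.738 FPKM, had Arntl at 24.6, Npas2 at 11.1, Nr1d1 at 4.63 and Per3 at 0.155 FPKM. In the next lowest, Dbp was 1.21, Arntl 22.1, Npas2 9.80, Nr1d1 13.4 and Per3 0.215 FPKM. Nr1d1 was thus near its median there, and in the library after it, with Dbp at 1.41 FPKM, Nr1d1 was above it at 21.4 FPKM. The libraries with the highest, next highest and lowest Dbp had 35282248, 27599945 and 24643387 recovered reads, each above the median library. Per1 did not follow the same order: it was 3.66 FPKM in the first of these, 15.2 in the next and 12.02 in the last. Clock took the values 2.63, 3.57 and 14.2 FPKM in the same libraries.

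Over all 430 libraries the correlation of Dbp with Arntl was r = -0.859 (rho = -0.836) and with Npas2 r = -0.846 (rho = -0.797), on log2 levels. Dbp and Arntl lay on opposite sides of their medians in 84.2% of libraries, and Dbp and Npas2 in 80.5%. Per unit of log2 Dbp, the fitted log2 level of Arntl was lower by 0.49 and that of Npas2 by 0.39, so the activators spanned a narrower range than the output. Clock shared the direction more weakly (r = -0.424), on the opposite side from Dbp in 62.3% of libraries. On the other side, Per3 had r = 0.746 (rho = 0.622) with Dbp and Nr1d1 r = 0.603 (rho = 0.593). They lay on the same side as Dbp in 73.5% and 72.6% of libraries. Per2 had r = 0.385 (rho = 0.272). Per1 was nearly unrelated to Dbp (r = 0.087, rho = 0.037, 52.1% of libraries on the same side). Without the 2 libraries farthest from the median of Dbp, r was -0.851 with Arntl, -0.838 with Npas2 and 0.733 with Per3. These correlations carry no p, because the libraries are not independent and share depth and scaling.

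**Figure D2:**
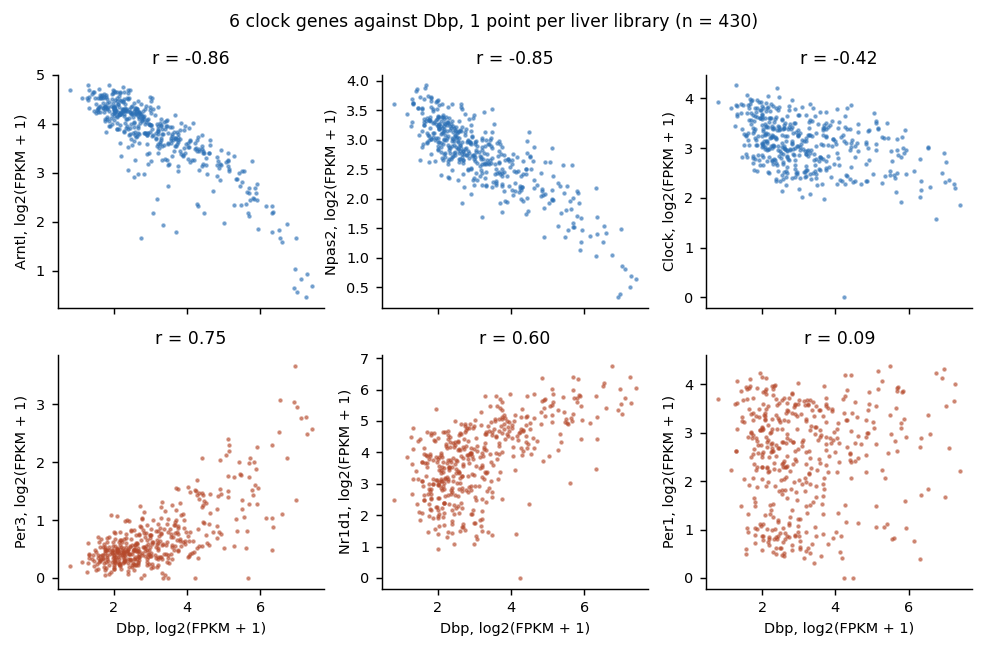
Level of Arntl, Npas2, Clock, Per3, Nr1d1 and Per1 against Dbp, each as log2(FPKM + 1), 1 point per library (n = 430). Arntl and Npas2 descend along a narrow band (r = -0.859 and -0.846), Per3 and Nr1d1 climb (0.746 and 0.603), and Per1 shows no slope (0.087).

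The 3 activators went together. Arntl and Npas2 had r = 0.816, Arntl and Clock 0.61, and Npas2 and Clock 0.467. Among Dbp, Nr1d1 and the 3 Per genes, all 10 pairs had r above 0, from 0.087 to 0.746 with a median of 0.349. Per3 was the tightest with its partners, at 0.674 with Nr1d1 and 0.638 with Per2. Of the 15 pairs that join an activator to one of these 5 genes, 11 had r below 0, with a median of -0.302. The 4 others were Clock with Nr1d1 (0.077), Per1 (0.234), Per2 (0.297) and Per3 (0.082). By rank, 11 of the 15 pairs were also below 0, with a weaker median, rho = -0.148. Arntl had rho = -0.359 with Per3, against r = -0.588, and rho = -0.464 with Nr1d1, against r = -0.429.

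Clock was also the gene that went most with the first component of all genes, and the sign of those 4 pairs changed when that component was removed. All 15 pairs were then below 0, from -0.887 to -0.042 with a median of -0.471. Clock then had r = -0.401 with Nr1d1, -0.386 with Per3, -0.178 with Per1 and -0.042 with Per2. The opposition of Arntl to Per3 deepened from -0.588 to -0.881 and that of Arntl to Nr1d1 from -0.429 to -0.696. The pair Dbp and Arntl moved little, from -0.859 to -0.887. Within Dbp, Nr1d1 and the Per genes all 10 pairs stayed above 0, and Dbp with Per3 went from 0.746 to 0.869. What the component stands for was not tested.

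**Figure D3:**
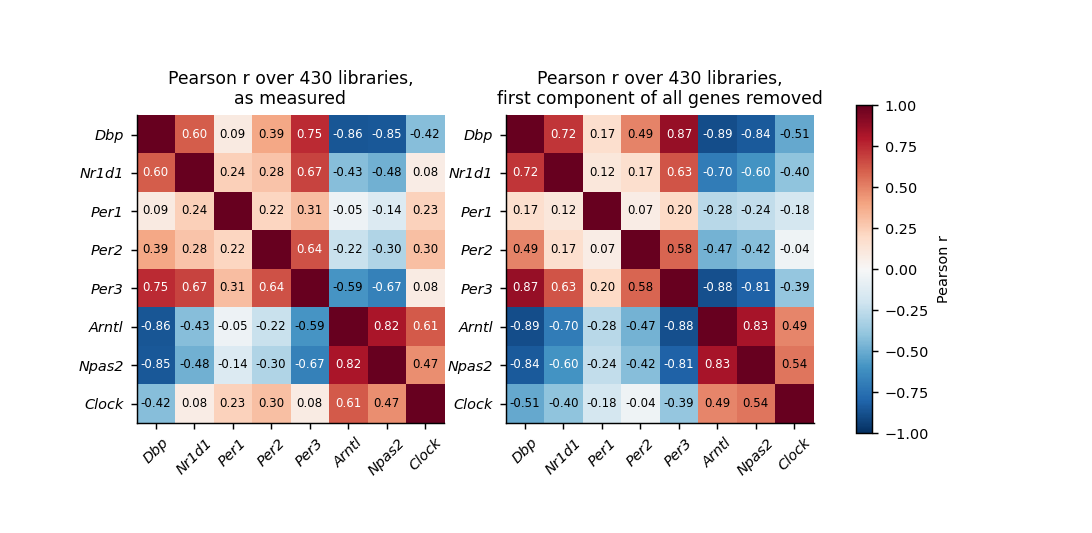
Pearson correlation of each pair of the 8 genes over 430 libraries, as measured (left) and after the first component of all genes was removed (right), with red above 0 and blue below. On the left Clock has red cells with Nr1d1, Per1, Per2 and Per3. On the right every cell between the activators and the other 5 genes is below 0.

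Of the 12233 other genes, Arntl had the lowest correlation with Dbp and Npas2 the next lowest, Per3 ranked 3 from the top and Nr1d1 ranked 5. The median correlation of all genes with Dbp was -0.029, 5% of them lay under -0.219 and 5% over 0.191. Only 9 genes reached r = 0.5 or more with Dbp, and 26 reached -0.5 or less. Npas2 had the highest correlation with Arntl of all genes, and Dbp the lowest, and the same held for Npas2 with Arntl and Dbp. Per3's highest was Dbp, with Nr1d1 at rank 4 and Per2 at rank 6, and Per2's highest was Per3. Per1 stood apart: none of the other 7 genes was among its 10 highest or 10 lowest, although 1.18% of genes reached r = 0.5 or more with it. The nearest of those 7 to Per1 was Per3, at rank 2306 with r = 0.312. Clock too had no other clock gene among its extremes, in a distribution where 30.4% of genes reached 0.5 or more.

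The 2 genes outside the set most like Dbp were ENSRNOG00000013982 (r = 0.843) and ENSRNOG00000019383 (r = 0.793). The former was abundant, with a median of 132.5 FPKM and a 10th to 90th percentile of 51.98 to 371.8, and the latter moved less, from 8.04 to 17.7 FPKM around a median of 11.04. The 2 least like it, after Arntl and Npas2, were ENSRNOG00000005464 (r = -0.761, median 10.01 FPKM, 5.85 to 15.2) and ENSRNOG00000030225 (r = -0.737, median 203.8 FPKM, 143.4 to 248.3). No table used here pairs these identifiers with gene names.

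The levels drifted with the number in the library's title. In 4 consecutive blocks of nearly equal size, the median of Dbp was 12.4, 8.78, 5.20 and 3.81 FPKM and that of Arntl 10.8, 13.4, 15.7 and 17.3 FPKM. Npas2 had 4.87, 5.50, 6.30 and 6.86 FPKM, and Per3 had 0.729, 0.590, 0.379 and 0.348 FPKM. Nr1d1 dropped between the second block and the third, with 25.2, 21.1, 7.90 and 9.85 FPKM. Per1 dipped in the third, with 6.13, 5.38, 3.22 and 5.998 FPKM. The range of every gene within a block overlapped that of the others, as the plot of levels over title numbers shows.

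Tested with limma over 12234 genes, the linear slope on title number passed an adjusted p of 0.05 for 5 of the 7 genes other than Dbp, against a background of 8.18% of all genes (4.29% that rose and 3.89% that fell). Per 100 title numbers, the log2 level of Arntl rose by 0.20 (SE 0.0266, adjusted p = 1.26e-10) and that of Npas2 by 0.17 (SE 0.0212, adjusted p = 2.39e-11). Nr1d1 fell by 0.38 (SE 0.0415, adjusted p = 3.15e-15), Per3 by 0.16 (SE 0.0192, adjusted p = 2.55e-12) and Per2 by 0.10 (SE 0.0183, adjusted p = 2.72e-05). Dbp's slope was known when the genes were chosen and has no test here; it was -0.45 (SE 0.0443), and no gene was steeper. Only 1 of all genes, Dbp itself, was steeper than Nr1d1, and the 5 steeper than Arntl include Dbp and Nr1d1. The slopes of Per1 (-0.09, SE 0.0396, adjusted p = 0.133) and Clock (0.04, SE 0.0188, adjusted p = 0.158) did not pass. Clock's passed with the first component as covariate (0.05, adjusted p = 3.09e-05), in a fit where 17.6% of all genes passed and 603 were steeper than Clock, whereas Per1's was -0.01 with 5 components (adjusted p = 0.784). These genes went with Dbp and were chosen with its drift known, so their slopes are not independent of it. The p-values measure only the spread between libraries, which may be technical, and neighbouring libraries resembled each other, so they are too small. What the title number stands for is not in the labels.

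**Figure D4:**
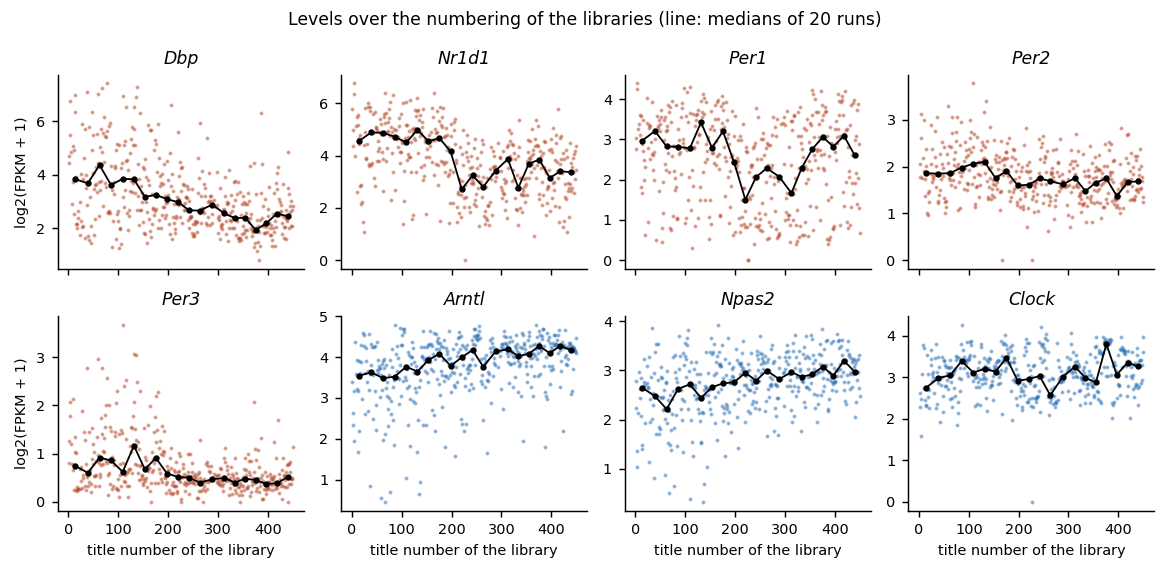
Level of each gene as log2(FPKM + 1) against the number in the library's title, 1 point per library (n = 430), with a line through the medians of 20 consecutive runs. Dbp, Nr1d1 and Per3 descend, Arntl and Npas2 ascend, and every panel keeps a wide spread at each number.

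The drift was not smooth for every gene. In 20 consecutive runs of about equal size, numbered in title order, Dbp had its highest median in run 3 (19.5 FPKM) and its lowest in run 17 (2.80 FPKM), a ratio of 6.96. Arntl and Npas2 had their lowest medians, 10.2 and 3.63 FPKM, in that same run 3, and their highest, 18.4 and 8.17 FPKM, in run 19. Nr1d1, Per1, Per2 and Per3 all had their highest median in run 6, at 30.6, 9.70, 3.29 and 1.24 FPKM. Nr1d1 and Per1 shared their lowest run too, run 10, at 5.53 and 1.83 FPKM. Differences between runs held 29.7% of the variance of log2 level for Nr1d1, 24.3% for Dbp and 23.5% for Per3, and 12.1% to 17.2% for the other 5 genes. Most of the variance of each gene thus lay between libraries with near title numbers.

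The opposition of Dbp to Arntl was present within each of the 4 blocks, at r = -0.901, -0.85, -0.744 and -0.723, and that to Npas2 at -0.878, -0.858, -0.71 and -0.702. Some other pairs held less well in the later blocks. Dbp also varied less there: its SD in log2 level was 1.6, 1.32, 0.80 and 0.86. Whether its lower spread changed the correlations was not tested. Dbp and Per3 went from 0.82 to 0.737, 0.391 and 0.323, and Dbp and Nr1d1 from 0.718 to 0.545, 0.329 and 0.28. Dbp and Per2 had 0.546, 0.391, -0.118 and 0.039. Arntl and Per3, at -0.588 over all libraries, ranged from -0.754 to 0.076 over the blocks. In contrast, Dbp and Clock had -0.484, -0.327, -0.567 and -0.486, and Arntl and Clock 0.651, 0.538, 0.719 and 0.723. Nr1d1 and Per3 stayed between 0.555 and 0.677.

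Libraries that share the first part of their identifier resembled each other in most clock genes. Over 92 such sets of 2 or more libraries, 44.9% of the 430, 7 of the 8 genes passed limma's moderated F test at an adjusted p of 0.05, with a spline of the title number as covariate. The background was 59.8% of all genes. Without the 22 libraries poorest in detected genes it was 27.4%, and 7 of the 8 genes passed there too. The share of variance between identifiers (intraclass correlation, ICC) was 0.555 for Per1 (adjusted p = 4.28e-08), higher than in 99.4% of genes. It was 0.46 for Per3 (adjusted p = 8.23e-06) and 0.41 for Nr1d1 (adjusted p = 0.000105), against a median of 0.187 over all genes. Arntl (0.357), Per2 (0.345), Dbp (0.323) and Npas2 (0.323) followed, with adjusted p from 0.000383 to 0.00207. Clock had 0.134, below the median gene (adjusted p = 0.0637), and 0.517 once the first 5 components were also covariates (adjusted p = 3.7e-07). With those covariates 56.9% of all genes passed, as did all 8 clock genes. In that fit Per1 was no longer first: it had 0.415, against 0.544 for Arntl and 0.427 for Per3. No label explains that shared part.

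Pairs of libraries gave a description with no test. The correlation used was the mean product of the deviations of both libraries over the pairs, divided by the variance over all libraries. In the 110 pairs that share the first part, it was 0.601 for Per1 after the spline was removed. In 2350 neighbouring pairs, with different first parts and at most 6 title numbers apart, it was 0.01. The median difference of log2 Per1 was 0.62 in sharing pairs, 0.997 in neighbouring ones and 1.06 in pairs more than 50 apart. Nr1d1 had correlations of 0.392 and 0.06 in sharing and neighbouring pairs, Per3 0.352 and 0.032, Arntl 0.315 and 0.04, Dbp 0.3 and 0.036, Per2 0.299 and 0.02, and Npas2 0.295 and 0.047. Clock alone was no higher in sharing pairs, 0.146 against 0.148. The median over all genes was 0.177 and 0.084. Before the spline was removed, neighbours were also alike in Nr1d1 (0.288), Dbp (0.24) and Per3 (0.228), and least so in Per1 (0.081).

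**Figure D5:**
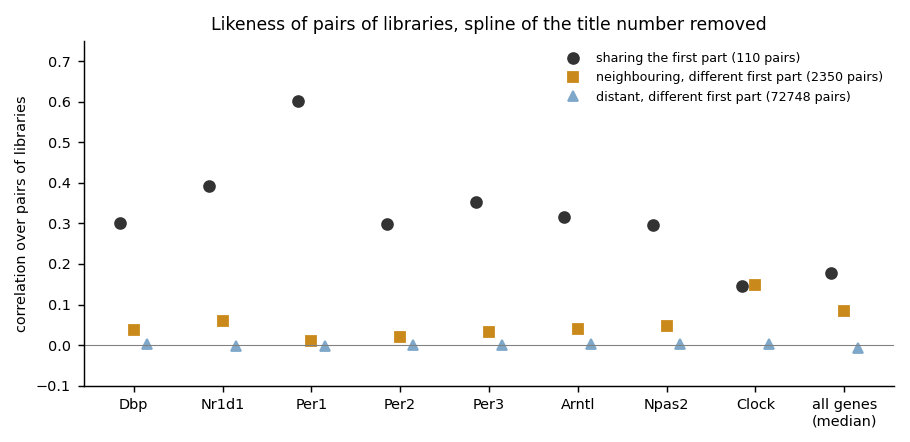
Correlation of a gene's log2 level over pairs of libraries, with a spline of the title number removed, for 110 pairs sharing the first part of the identifier (circles), 2350 neighbouring pairs (squares) and 72748 distant pairs (triangles). The correlation is the mean product of deviations over the pairs, divided by the variance over all libraries. Per1 has the highest circle (0.601) and a square near 0 (0.01), and the circle and square of Clock coincide (0.146 and 0.148).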

How the data were processed

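Liver RNA of outbred rats was sequenced. The deposited values are FPKM, as read from the values: within a gene and a library they are whole multiples of a step, and 99.97% of those above 0 gave whole reads (tolerance 0.001). Reads given here are so recovered and are no deposited counts, and values at 2 reads (323840) outnumbered those at 1 read (116181). Whether each end of a pair was counted as a read was not tested, so fragments may be fewer than the reads given. The submitters' processing notes name STAR, Picard, featureCounts and DESeq2, without versions or roles. For build, annotation and strand the answer is the same: not given in the sources used here. FPKM totals ran from 430947 to 1273438. Of 448 libraries, 430 had a column by their identifier, 18 are not analysed here, and 1 further column matched no library and was not used. No column was identical to another.

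The 8 genes and all lists were chosen with earlier results of these data known. Genes named were these 8 and at most 2 other identifiers in each direction, because 0 of the 16796 identifiers matched the gene table. A list of other clock genes and lists of liver cell type markers could therefore not be run, and the tissue label was not checked. Promoters were matched by symbol (8 of 8).

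Levels were taken as log2(FPKM + 1), so fold changes of low genes are understated. Trend and resemblance were fitted with limma 3.58.1 in R 4.3.3, with a variance trend, over 12234 genes, and adjusted by Benjamini-Hochberg. The steps were tested on simulated data. Python 3.11.15 with numpy 2.4.6, pandas 2.3.3 and scipy 1.17.1 gave the rest. Alternatives were pseudocounts of 5 and 0.5, no filter or one at 10 FPKM, a common upper quartile, Spearman's rho, leaving out the 22 libraries with the fewest genes detected, removal of 1 or 5 components or of a spline with 4 degrees of freedom, the 4 blocks, and another order.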

Additional observations from a re-analysis of the deposited data

How the results depend on the processing

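The order of the 8 genes by median held after rescaling to a common upper quartile. When the 22 libraries poorest in detected genes were left out, 6 of 8 ranks held. Pseudocounts cannot change a median FPKM, so they gave no check of this order. Over the 28 pairs r had a median size of 0.405, and of 0.571 with 5 components removed, 0.515 in the first block and 0.277 in the fourth. Of the 20 genes at both ends of the likeness to Dbp, 12 were shared with a filter of 10 FPKM. That filter leaves fewer genes tested: the slope then passed for 2 of the 4 genes left besides Dbp, and resemblance for 4 of 5. At that filter 9.59% of all genes passed the slope test and 68.5% the resemblance test. Pairs whose sign changed in the third block were Dbp and Per2 (-0.118), Arntl and Per2 (0.359), Npas2 and Per2 (0.082), Nr1d1 and Per2 (-0.183), and Per1 and Per2 (-0.106). In the fourth block they were Arntl and Per2 (0.232), Arntl and Per3 (0.076), Npas2 and Per2 (0.165), and Nr1d1 and Per2 (-0.02). With 5 components removed they were Clock and Per1 (-0.035), Clock and Per2 (-0.317), and Nr1d1 and Per1 (-0.067), and with 1 removed Clock and Per1 (-0.178) and Clock and Per2 (-0.042). The causes were not tested. Changes of sign were counted where r was at least 0.2 in size.

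Without those 22 libraries the slope of Clock passed (0.05, adjusted p = 0.0384 in limma), 1523 genes passed the slope test in place of 1001, and 3348 passed the resemblance test in place of 7319. With 1 component as covariate 2158 genes passed the slope test, and with 5 components 3079. No paired comparison of groups was possible because all libraries form 1 group. The alternatives for the list of other clock genes were not run, since no identifier was matched. Depth limits Per3 most, with a median of 72 recovered reads.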
